A study of Mus musculus with 32 samples.

Results

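The Fgf feedback and target genes are 10 genes that cells commonly raise when Fgf signals reach them, namely Spry1, Spry2, Spry4, Spred1, Spred2, Etv1, Etv4, Etv5, Dusp6 and Il17rd. They were found by their Ensembl identifiers, matched through the GRCm38 gene symbols, and all 10 were present among the 48576 identifiers of the expression files. RNA-seq was done on forebrain (Fb) and midbrain (Mb) tissue of B6C3F1 mouse embryos at embryonic day 9.5, in 32 libraries. Each tissue had 6 libraries of wild-type embryos (WT) from WT matings, 4 of triple knockout embryos lacking Cdh6, Cdh8 and Cdh11 with exencephaly (TKO_Ex), 3 of double knockout embryos labelled Cdh8.11 with exencephaly (DKO_Ex) and 3 of double knockout embryos labelled Cdh6.8 with a cranial defect but a closed brain (DKO_CD). Exencephaly is a failure of the cranial neural tube to close. The study's methods describe the cranial defect embryos as Cdh8/11 double knockouts with an elongated Mb, so their genotype is given here only by the group name. The Cdh alleles are CRISPR/Cas9 deletions around the translation start, and every mutant embryo came from matings of triple heterozygotes of that line, so the missing cadherins and other differences between the line and the WT matings cannot be told apart.

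Fgf ligands bind Fgf receptors on the cell surface and switch on the Ras and ERK kinase cascade. The cascade raises transcription of its own inhibitors and of the Ets factors that carry the signal into the nucleus, so these genes are widely read as a measure of Fgf signalling. In the brain of this stage Fgf8 is made at the isthmus, the organizer between midbrain and hindbrain, and at the anterior rim of the forebrain. Each of the 10 genes acts at a known step. Spry1, Spry2 and Spry4 encode Sprouty proteins, and Spred1 and Spred2 encode related proteins, all of which restrain the Ras pathway. Etv1, Etv4 and Etv5 are Ets transcription factors. Dusp6 is a phosphatase that inactivates ERK, and Il17rd, also called Sef, is a membrane protein that dampens Fgf receptor signalling.

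Libraries were estimated to hold 1.96 to 3.26 M fragments, and a member's value in 1 library rested on about 3.3 to 973 fragments. Values are FPKM, fragments scaled to the length of the transcript and to the mapped fragments of the library, so that levels of different genes can be compared. The tissue labels held at their markers. The summed level of 8 midbrain and isthmus markers was 58.4 to 237 FPKM in WT Mb and 12.3 to 18.01 FPKM in WT Fb, and that of 10 forebrain markers was 7.99 to 72.5 FPKM in WT Mb and 230 to 306 FPKM in WT Fb. Cdh6 was at 0.345 to 0.388 FPKM in 3 of the 4 TKO_Ex Mb libraries, against 1.04 to 3.55 FPKM in WT Mb, whereas TKO_Ex replicate 3 was at 3.10 FPKM in Mb and 3.74 FPKM in Fb, within the WT range. Cdh6 in DKO_CD Mb was at 1.29 to 2.11 FPKM, also within the WT range. Since a frameshift allele can still be transcribed, these levels are a weak check of genotype. In 12 DKO libraries the column heading and the record name opposite DKO groups, and the headings were followed.

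WT Mb replicate 5 stood apart before any comparison. Fgf8 was listed at 0 in it, against 6.23 to 24.6 FPKM in the other 5 WT Mb libraries. Fgf17 was also listed at 0, against 3.23 to 20.3 FPKM, and Fgf18 was at 0.907 FPKM, against 3.87 to 7.83 FPKM. The 8 midbrain and isthmus markers summed to 58.4 FPKM there and to 127 to 237 FPKM in the others, with En1 at 3.57 FPKM against 32.0 to 59.0 FPKM. Its 10 forebrain markers summed to 72.5 FPKM, against 7.99 to 52.8 FPKM. Pax6 alone was 52.7 FPKM of that sum, against 6.83 to 45.9 FPKM in the others, and 5 of the 10 were under 1 FPKM in replicate 5. Its 7 hindbrain markers summed to 1.61 FPKM, against 5.06 to 19.3 FPKM. By contrast Fgf15 was at 28.4 FPKM, within the 25.5 to 37.4 FPKM of the others, and Wnt1 was at 14.03 FPKM, within their 13.7 to 25.1 FPKM. Results that rest on it are given with and without it. In bulk tissue, fewer cells of a type and less RNA per cell cannot be told apart.

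Promoter sequences are shown for Spry1 and Spry2, which were among the members that passed in 2 kinds of test below, and for Dusp6, the member with the highest mean in WT Mb and WT Fb. The set of RefSeq promoter windows used here covered 8 of the 10 members, with none for Spry4 or Etv4. Each stretch is the 250 bases before the RefSeq start on GRCm38.p6, written 5′ to 3′ along the gene. Capitals mark GGAA, the core bound by Ets factors, read on either strand. The Spry1 stretch is chr3:37639697-37639946 on the plus strand, that of Spry2 is chr14:105896820-105897069 on the minus strand and that of Dusp6 is chr10:99262981-99263230 on the plus strand.
Spry1: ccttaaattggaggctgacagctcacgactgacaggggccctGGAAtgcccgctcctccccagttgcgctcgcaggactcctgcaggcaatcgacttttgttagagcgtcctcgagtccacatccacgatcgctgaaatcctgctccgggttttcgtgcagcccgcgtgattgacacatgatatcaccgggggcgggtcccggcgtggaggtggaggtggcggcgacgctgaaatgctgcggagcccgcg
Spry2: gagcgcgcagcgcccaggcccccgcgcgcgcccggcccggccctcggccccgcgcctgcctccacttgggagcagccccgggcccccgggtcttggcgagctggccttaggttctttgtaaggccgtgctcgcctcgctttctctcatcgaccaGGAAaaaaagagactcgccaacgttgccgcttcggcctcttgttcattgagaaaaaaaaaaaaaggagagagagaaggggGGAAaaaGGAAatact
Dusp6: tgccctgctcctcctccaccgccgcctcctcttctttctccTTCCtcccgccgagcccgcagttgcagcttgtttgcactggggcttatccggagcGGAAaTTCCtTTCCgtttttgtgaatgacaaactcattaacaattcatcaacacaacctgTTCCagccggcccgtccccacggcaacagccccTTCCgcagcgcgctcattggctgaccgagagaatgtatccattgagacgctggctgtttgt
GGAA or its reverse complement occurred 1 time in the Spry1 stretch, 3 times in that of Spry2 and 6 times in that of Dusp6, and the median over 32851 promoter windows of this length was 3. The set held 10 windows for the 8 members. GGAA on either strand was found in 9 of them, in at least 1 window of each member, and in 93.4% of all windows. The longer string AGGAAG was in windows of 3 of the 8 members, which were Dusp6, Spred2 and Etv1, and in 29.5% of all windows. CCGGAAGT was in none of them and in 2.88% of all windows. A match is a string in this window and not a binding site.

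In WT Mb the means of the members ran from 22.6 to 1.55 FPKM. Dusp6 had the highest mean, 22.6 ± 6.46 FPKM (SD, n = 6). Spred2, Spry2, Spred1, Spry1, Il17rd and Etv5 followed with means from 19.1 to 13.6 FPKM, and neighbours in this order, Dusp6 included, differed by less than the larger of their SDs. Etv4 was at 6.46 ± 4.27 FPKM, Etv1 at 2.89 ± 2.21 FPKM and Spry4 at 1.55 ± 0.513 FPKM. Etv5 and Etv4 also differed by less than the larger of their SDs. Their libraries overlapped, at 3.83 to 23.1 FPKM for Etv5 and 0.520 to 13.4 FPKM for Etv4. In WT Fb Dusp6 was again highest, at 32.0 ± 5.88 FPKM, and Spred2, Spry2, Etv5, Spred1, Spry1 and Il17rd lay between 14.6 and 11.6 FPKM. Etv4 was at 4.05 ± 1.16 FPKM, Spry4 at 2.46 ± 0.989 FPKM and Etv1 at 2.01 ± 0.920 FPKM.

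The spread between embryos differed among members. In WT Mb the coefficient of variation was 8.7% for Spred2, 28.5% for Dusp6 and 30.1% for Spred1, but 49.7% for Spry1, 53.1% for Il17rd, 66.1% for Etv4, 73.3% for Spry2 and 76.6% for Etv1. Without replicate 5 these became, in the same order, 4.9%, 9.0% and 23.9%, and 26.9%, 34.3%, 45.7%, 59.9% and 65.9%. In WT Fb the coefficient was 7.4% for Spry2, 8.9% for Spred1, 18.4% for Spry1, 20.4% for Il17rd and 28.6% for Etv4, below the Mb values with and without replicate 5. It was 18.4% for Dusp6, between the Mb values with and without that library, and 13.9% for Spred2 and 40.2% for Spry4, above both. Spry2 shows the contrast most plainly. Its WT Mb libraries ran from 3.83 to 35.1 FPKM with a median of 14.95, whereas its WT Fb libraries ran from 12.98 to 16.01 FPKM with a median of 14.1.

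**Figure D1:**
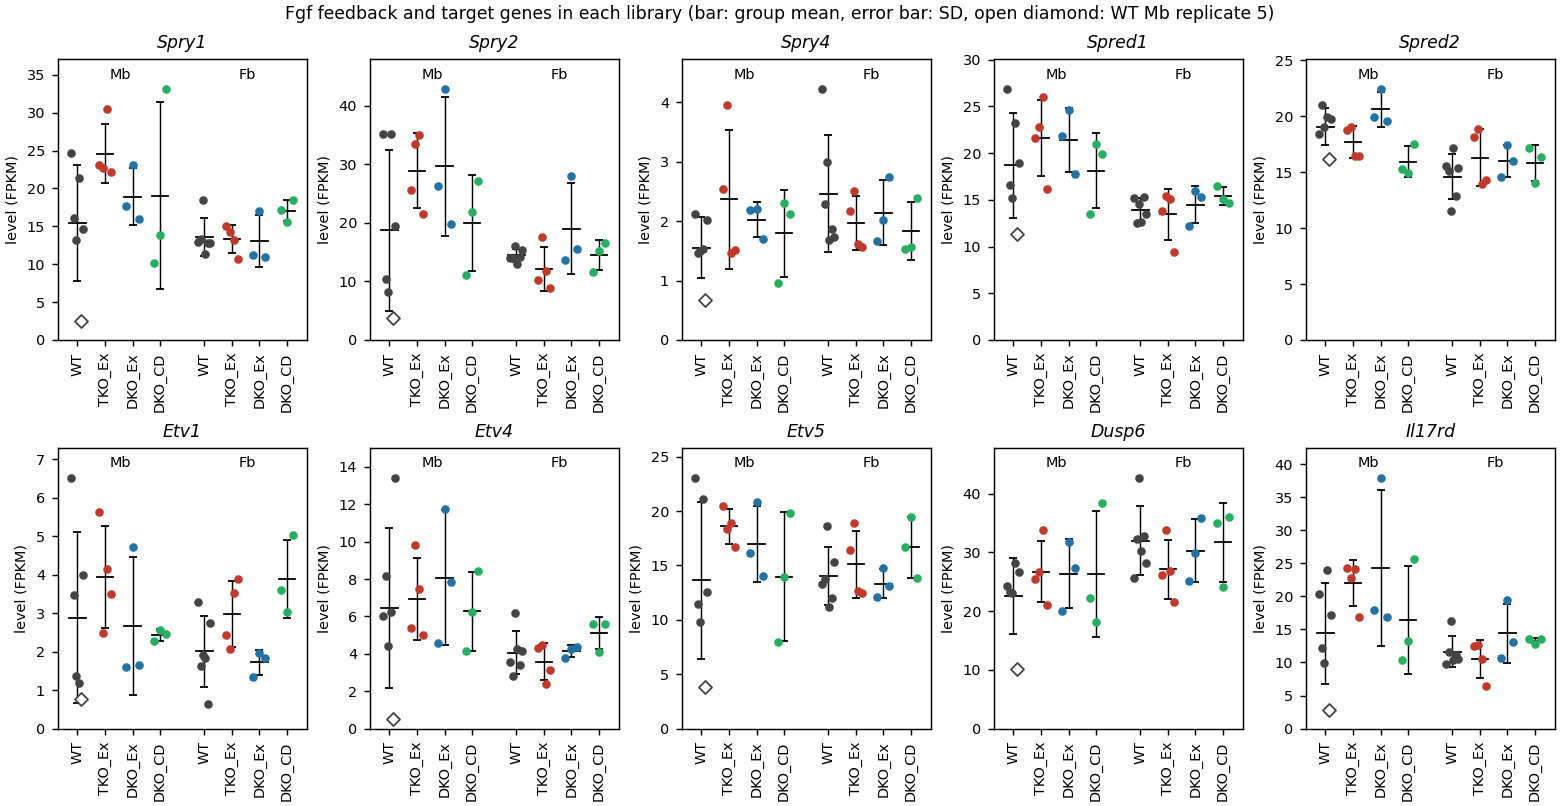
Level of each member (FPKM, linear axis from 0) in each of the 32 libraries, by tissue and group, with the group mean as a horizontal line and the SD as an error bar. WT Mb replicate 5, the open diamond, was the lowest of the 6 WT Mb points for all 10 members, and the Mb points of Spry2 and Il17rd were spread more widely than their Fb points.

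WT Mb replicate 5 was the lowest of the 16 Mb libraries for 9 of the 10 members, compared with 7.62% of all 13363 genes expressed at 1 FPKM or more on average in Mb. It was the lowest of the 6 WT Mb libraries for all 10, compared with 15.9% of these genes. The exception was Spred2, which was lowest in DKO_CD replicate 2, at 15.0 FPKM, with WT replicate 5 at 16.2 FPKM. Relative to the median of the other 5 WT Mb libraries, replicate 5 held 8.35% of the level for Etv4, 15.6% for Spry1, 16.4% for Il17rd and 19.6% for Spry2. It held 21.9% for Etv1, 30.5% for Etv5, 41.6% for Dusp6 and 43.9% for Spry4. Spred1 with 59.9% and Spred2 with 81.9% were nearest to the others. The receptors Fgfr2 and Fgfr3 lay on the other side. Fgfr2 was at 80.2 FPKM against 33.4 to 51.3 FPKM in the others, and Fgfr3 at 32.1 FPKM against 15.7 to 27.3 FPKM. Fgfr1, at 34.4 FPKM, lay within the 32.4 to 42.9 FPKM of the others. Etv4 in this library rested on only about 3.3 fragments.

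The next question was whether the members followed Fgf8 from one Mb library to the next. Fgf8 itself rested on few fragments, at most about 82.6 in any Mb library and about 11.2 in DKO_CD replicate 1. The 3 Mb libraries with the least Fgf8 were WT replicate 5, listed at 0, DKO_CD replicate 1 at 3.47 FPKM and WT replicate 3 at 6.23 FPKM. The first of these was among the 3 lowest Mb libraries for all 10 members, and each of the other two for 7 of 10, compared with 21.5%, 14.1% and 15.3% of all genes. The library with the most Fgf8, TKO_Ex replicate 1 at 30.5 FPKM, was the highest for none of the members. DKO_Ex replicate 2, with Fgf8 at 22.8 FPKM, was the highest for 3 members, among them Spry2 at 42.8 FPKM and Il17rd at 38.0 FPKM.

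The slope of each gene on Fgf8 was fitted with limma over the 16 Mb libraries with the group as a covariate, on log2(FPKM + 1). It states the log2 difference of a gene per log2 unit of Fgf8 among embryos of one group. All 10 members had a positive slope, and 4 passed an adjusted p below 0.05, while 0.0898% of all 13362 genes did. Etv5 had a slope of 0.45 ± 0.05 (SE, adjusted p = 0.00206) and Il17rd of 0.53 ± 0.06 (adjusted p = 0.00308). Spry1 had a slope of 0.54 ± 0.07 (adjusted p = 0.00506) and Spry2 of 0.56 ± 0.09 (adjusted p = 0.0376). Those of Etv4 (0.51), Dusp6 (0.27), Etv1 (0.26), Spred1 (0.21), Spry4 (0.20) and Spred2 (0.07) missed the threshold, although all 10 members had an unadjusted p below 0.05, which 6.59% of all genes had. The median slope was 0.36 for the members and 0.00 for all genes. Of the related genes, Fgf17, another ligand of the isthmus, had a slope of 0.92 ± 0.09 (adjusted p = 0.000909) and Fgfr2 one of -0.29 ± 0.04 (adjusted p = 0.00803). Spred3, a relative of Spred1 that was no member, had a slope of 0.18 ± 0.04 (adjusted p = 0.181), and Fgf15 one of 0.00 ± 0.08.

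The calls of Spry1, Etv5 and Il17rd were each lost in 1 of 16 fits that left out 1 library, the one without WT Mb replicate 5. That of Spry2 held in only 5 of the 16, and was lost without WT Mb replicate 1, 4, 5 or 6, TKO_Ex replicate 2 or 4, DKO_Ex replicate 1 or 2, or any DKO_CD library. Without WT Mb replicate 5 no member and none of 13363 genes passed the adjusted threshold in limma, while the slopes of all 10 members stayed positive and 5 kept an unadjusted p below 0.05, which 5.73% of all genes had. The slope was then 0.63 ± 0.16 for Spry2, 0.50 ± 0.11 for Il17rd, 0.46 ± 0.09 for Etv5, 0.41 ± 0.11 for Spry1 and 0.26 ± 0.08 for Spred1. The lowest adjusted p among them was 0.257, for Etv5. Fgf17 (1.06 ± 0.15) and Fgfr2 (-0.36 ± 0.06) missed it as well. The slopes were fitted within groups, but Fgf8 and the members come from the same dissected pieces, and the 8 midbrain and isthmus markers varied with them. Their summed level was 58.4 FPKM in WT replicate 5 and 106 FPKM in DKO_CD replicate 1, the lowest of its group, whose others reached 205 FPKM. Of these 8 markers 6 had a positive slope on Fgf8 and 4 passed the adjusted threshold, with a median of 0.46, beside the 4 of 10 members. Without replicate 5 none of the 8 passed and the median was 0.21. Of 2 tested hindbrain markers 1 passed with all libraries, and the 4 forebrain markers that could be tested in Mb had negative slopes, with a median of -0.53. Their part in the slopes of the members was not tested.

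**Figure D2:**
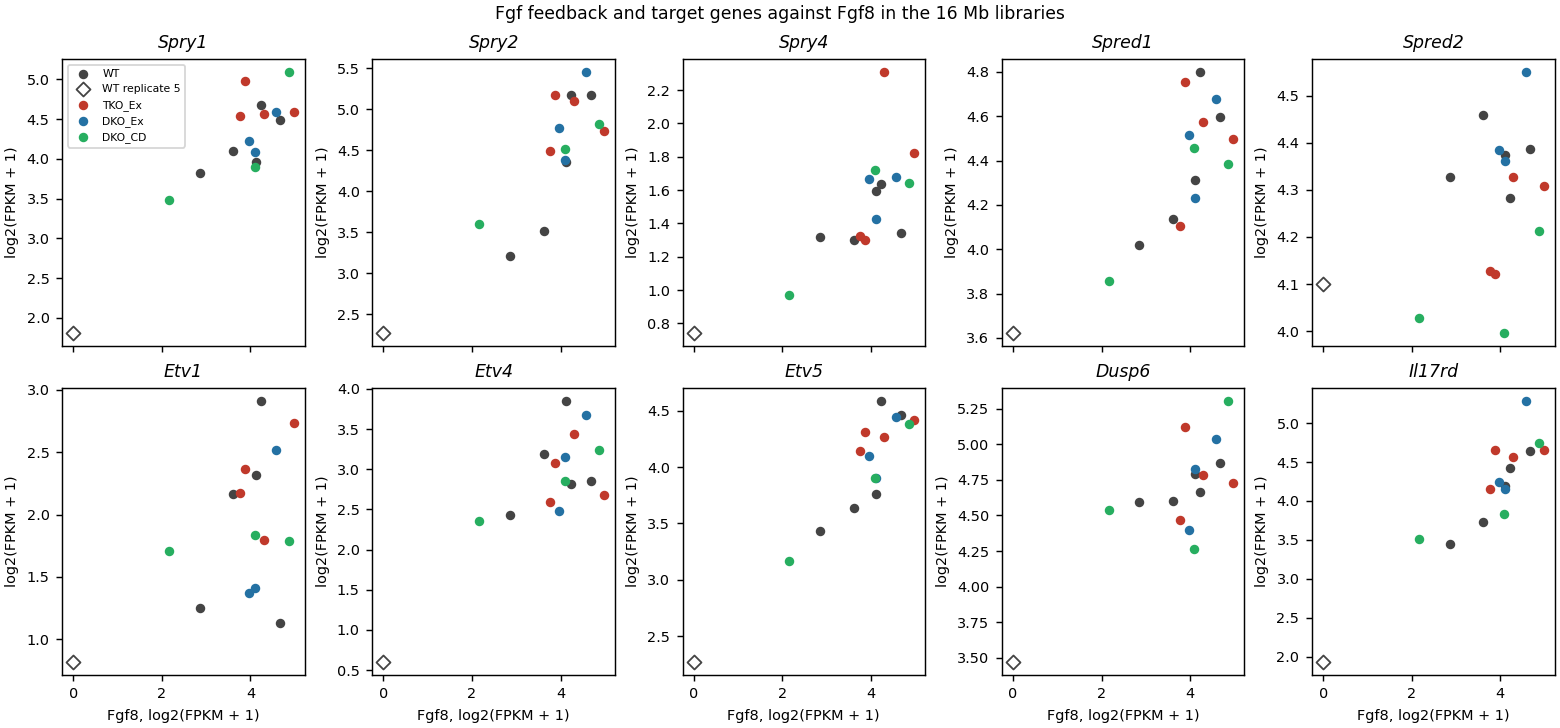
Level of each member against Fgf8, both as log2(FPKM + 1), in the 16 Mb libraries, with colours for the groups and an open diamond for WT replicate 5. The diamond lies alone at 0 on the Fgf8 axis, and the remaining points of Spry2, Il17rd and Etv5 still rise from left to right.

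Fb gave no such relation. The same fit over the 16 Fb libraries put the slope above 0 for 5 members and below 0 for 5, with a median of 0.01, and none of 13271 genes passed the adjusted threshold in limma. No member had an unadjusted p below 0.05, which 5.56% of all genes had. The 95% intervals still included sizeable slopes, from -0.35 to 0.34 for Spry2 and from -0.42 to 0.25 for Il17rd, so a difference between the tissues is not shown by this. TKO_Ex Fb replicate 4 had the most Fgf8 of the Fb libraries, 38.9 FPKM, and was the lowest for 5 of the 10 members, compared with 8.94% of all genes. Spry2 was at 8.96 FPKM there, Spred1 at 9.46 FPKM and Il17rd at 6.49 FPKM. The 7 surface ectoderm markers summed to 64.9 to 113 FPKM in WT Fb and to 96.4 to 242 FPKM in TKO_Ex Fb, and all 7 had a positive slope on Fgf8 in Fb, with a median of 0.54. Their part in these values was not tested.

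Over all 32 libraries the genes whose pattern was most like the mean log2 level of the members were Fgf17 with r = 0.847, Spred3 with 0.773, Arhgef26 with 0.724, Dusp4 with 0.701 and Sp8 with 0.697, by Pearson correlation among 13389 genes. Fgf8 came 7th with 0.681. The points share library, group and tissue, so these are descriptions. Without WT Mb replicate 5 Fgf17 was still first, with r = 0.735, Spred3 was 15th with 0.660 and Fgf8 was 788th with 0.384.

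Next, the mutants were compared with WT, to ask whether loss of the cadherins changed the readout of Fgf signalling. In the comparisons of TKO_Ex, DKO_Ex and DKO_CD with WT, in Mb and in Fb, none of the 10 members passed an adjusted p below 0.05 in limma. All 10 had a mean of at least 1 FPKM in each comparison and were tested. The share of all genes that passed was 0.0898% for TKO_Ex Mb, 0.0903% for DKO_Ex Mb and 0.0375% for DKO_CD Mb, and 0.0603%, 0.0759% and 0.0378% in Fb, so few genes of any kind were called. At an unadjusted p below 0.05 there were no members in TKO_Ex, DKO_Ex or DKO_CD Mb, while 8.38%, 5.46% and 6.69% of all genes were, and 0, 0 and 1 members in Fb, while 8.66%, 7.01% and 8.44% were. The 6 comparisons share their WT libraries within each tissue and are not independent. In 60 pairs of member and comparison, the mutant libraries overlapped the WT libraries in every case, whereas 1.74%, 3% and 3.38% of all genes did not overlap in TKO_Ex, DKO_Ex and DKO_CD Mb, and 2.23%, 3.7% and 4.22% did not in Fb. A p that misses the threshold does not show equal levels, and the intervals below say how large a difference the data allow.

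In TKO_Ex Mb the estimates lay above WT for 9 of 10 members, with a median log2 difference of 0.43 against 0.02 over all genes. Spry1 was at 23.1, 22.6, 30.4 and 22.2 FPKM in the 4 TKO_Ex Mb libraries, and at 2.51 to 24.6 FPKM with a median of 15.4 in WT Mb. Only replicate 3, the TKO_Ex library with Cdh6 within the WT range, exceeded the highest WT library. The log2 difference was 0.85 with a 95% interval from -0.15 to 1.86 (adjusted p = 0.660 by limma). Spry2 was at 25.5, 33.4, 35.0 and 21.6 FPKM in TKO_Ex, and none of these exceeded the 35.1 FPKM of the highest WT library. Its log2 difference was 0.93 (interval -0.21 to 2.06), that of Il17rd 0.78 (-0.18 to 1.74) and that of Etv5 0.60 (-0.22 to 1.41). Spred2 was the only member with an estimate below WT, -0.10 (-0.32 to 0.12). The 8 midbrain and isthmus markers moved alongside, with a median of 0.46 and 7 of 8 above WT, and a median of 0.13 without WT Mb replicate 5. Their part in the estimates was not tested.

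Without WT Mb replicate 5 these estimates were smaller, and no member passed, while 0.0449% of all genes did. The median over the members became 0.28, and Spry1 was 0.46 (interval 0.04 to 0.87, adjusted p = 0.651 by limma), Spry2 0.59 (-0.32 to 1.498), Il17rd 0.42 (-0.11 to 0.95) and Etv4 -0.08 (-0.71 to 0.55). The ligands gave estimates in the same direction that also missed the threshold. Fgf17 was at 19.2, 19.2, 17.0 and 19.0 FPKM in TKO_Ex Mb, with a log2 difference of 1.56 ± 0.69 (SE, adjusted p = 0.586) that was 1.01 ± 0.41 without WT Mb replicate 5. Fgf15, whose level in replicate 5 was that of the other WT libraries, differed by 0.71 ± 0.15 with all libraries and by 0.70 ± 0.16 without it, and its adjusted p was 0.143 and 0.249. Fgf8 differed by 0.98 ± 0.76 and by 0.33 ± 0.36, Fgf18 by 0.78 ± 0.37 and by 0.48 ± 0.21.

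In DKO_Ex Mb all 10 members had estimates above 0, with a median of 0.36, which was 0.09 without WT Mb replicate 5. No member passed without that library either, while 0.0601% of all genes did. Spry2 was at 26.3, 42.8 and 19.8 FPKM, and its log2 difference of 0.92 (interval -0.42 to 2.26) became 0.58 (-0.50 to 1.67). Il17rd was at 18.02, 38.0 and 16.9 FPKM, and its 0.84 (-0.34 to 2.01) became 0.48 (-0.26 to 1.22). Both genes were carried by replicate 2, which was above every WT Mb library, whereas the other two lay inside the WT range. The 8 midbrain and isthmus markers had a median of 0.59, and of 0.25 without that library, and their part was not tested. Etv1 had a difference of 0.00 (-1.05 to 1.06), its libraries being at 1.59, 4.73 and 1.66 FPKM.

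In DKO_CD Mb the direction itself depended on WT Mb replicate 5. With it 8 of 10 members had estimates above 0 with a median of 0.16, and without it 2 of 10 with a median of -0.10 and no member passing, while 0.03% of all genes did. The DKO_CD embryos differed among themselves. Spry1 was at 10.1, 13.8 and 33.1 FPKM, Etv5 at 7.99, 13.98 and 19.9 FPKM and Dusp6 at 22.3, 18.2 and 38.5 FPKM in replicates 1 to 3. Replicate 1, which had the least Fgf8 of the group, was lowest for Spry1 and Etv5, while replicate 3 was highest for all of these. Spred2 was the only member whose DKO_CD libraries, at 15.3, 15.0 and 17.5 FPKM, all lay below the WT range once replicate 5 was left out, which held for 4.44% of all genes in either direction. In TKO_Ex and DKO_Ex Mb no member was so placed without replicate 5, against 2.28% and 4.07%. The log2 difference of Spred2 in DKO_CD was -0.24 (interval -0.49 to 0.00), and -0.29 (-0.52 to -0.05) without replicate 5, with an adjusted p of 0.748 and 0.722 by limma. Estimates for markers of other cell types also lay away from 0, but no mesenchyme marker passed the adjusted threshold. The mesenchyme markers summed to 105 to 163 FPKM in DKO_CD Mb and to 66.4 to 112 FPKM in WT Mb, with a median log2 difference of 0.63 over 6 tested markers. That of 6 tested surface ectoderm markers was 0.48, and the part of these cells was not tested.

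In Fb the estimates went in both directions. The median over the members was -0.10 for TKO_Ex, 0.00 for DKO_Ex and 0.17 for DKO_CD, against 0.02, -0.01 and 0.04 over all genes. In TKO_Ex Fb the interval ran from -0.33 to 0.28 for Spry1, from -0.37 to 0.23 for Spred1 and from -0.25 to 0.45 for Etv5. Estimates farther from 0 were those of Spry2, -0.27 (-0.62 to 0.07), Dusp6, -0.23 (-0.56 to 0.10), and Etv1, 0.44 (-0.14 to 1.02). For Spry2 3 of the 4 TKO_Ex Fb libraries were below every WT Fb library and 1 was above every one. The largest estimate in Fb was that of Etv1 in DKO_CD, at 3.60, 3.04 and 5.03 FPKM against 0.642 to 3.29 FPKM in WT, a log2 difference of 0.74 (interval 0.09 to 1.39, adjusted p = 0.549 by limma). Summed levels of cell type markers also varied between these groups, but no mesenchyme or early neuron marker passed the adjusted threshold against WT in Fb. The 8 mesenchyme markers in the files summed to 203 to 231 FPKM in WT Fb, to 123 to 190 FPKM in TKO_Ex Fb to 151 to 162 FPKM in DKO_Ex Fb and to 88.0 to 243 FPKM in DKO_CD Fb. The early neuron markers summed to 13.5 to 20.2 FPKM in DKO_CD Fb and to 5.84 to 10.98 FPKM in WT Fb, with a median log2 difference of 0.84 over 4 tested markers, and their part in the estimates was not tested.

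**Figure D3:**
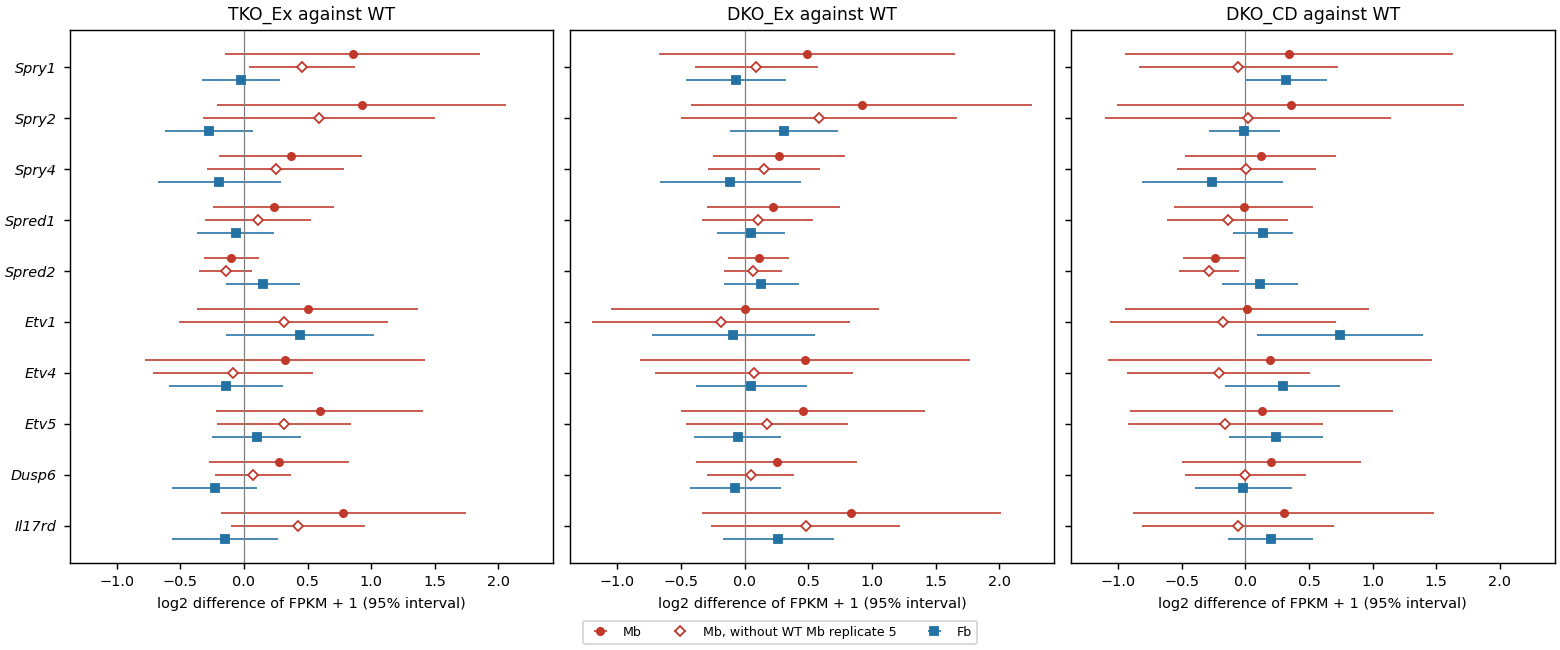
Log2 difference of FPKM + 1 between each mutant group and WT for each member, with 95% intervals, in Mb with all libraries (filled circles), in Mb without WT Mb replicate 5 (open diamonds) and in Fb (squares). The intervals leave out 0 for Spry1 in TKO_Ex Mb and Spred2 in DKO_CD Mb without that library and for Etv1 in DKO_CD Fb, and in Mb the open diamonds lie to the left of the circles for all 10 members in each of the 3 mutant groups.

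By limma the wider pathway also had no calls in the mutants. The lists were 13 further feedback and target genes, 12 ligands, 4 receptors and 20 genes of the cascade itself, and none of their tested genes passed in any of the 6 comparisons by limma on the FPKM values. No count test was run here, and another test can call other genes. The paper tested read counts and reported the ligand Fgf15 among the genes changed specifically in Mb with exencephaly. By in situ hybridization it also described an increase of Fgf15 in the open Mb of a double knockout embryo. In TKO_Ex Mb the median log2 difference was 0.27 over 12 tested feedback genes, 0.78 over 5 ligands, -0.51 over 3 receptors and -0.02 over the 20 cascade genes. Fgfr2 had an estimate of -0.51 ± 0.23 (SE), Fgfr3 of -0.59 ± 0.27, Fgfr1 of -0.09 ± 0.11 and Spred3 of 0.28 ± 0.20. Fgf15 was at 39.6 to 58.5 FPKM in TKO_Ex Mb and 42.5 to 73.5 FPKM in DKO_Ex Mb, against 25.5 to 37.4 FPKM in WT Mb. The cell cycle gene Ccnd1 was at 136 to 151 and 133 to 162 FPKM, against 103 to 128 FPKM. Both overlapped WT in DKO_CD Mb. Of all genes 1.74% and 3% did not overlap in TKO_Ex and DKO_Ex Mb. Overlap was not counted for the other listed genes.

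The members were then compared between Mb and Fb within each group. In WT, 1 of 10 passed, while 8.26% of all genes did, and 2 had an unadjusted p below 0.05, which 20.9% of all genes had. That member was Spred2, at 16.2 to 21.01 FPKM with a median of 19.4 in Mb and at 11.6 to 17.2 FPKM with a median of 15.3 in Fb. Its log2 difference was 0.37 ± 0.10 (SE, adjusted p = 0.0406 by limma), and the tissues overlapped when all libraries were counted. This call was lost when any of 10 of the 12 libraries was left out. Dusp6 went the other way, at 10.1 to 28.2 FPKM with a median of 23.8 in Mb and 25.7 to 42.7 FPKM with a median of 31.3 in Fb, a difference of -0.53 ± 0.21 that missed the adjusted threshold (adjusted p = 0.163) and was -0.32 ± 0.12 without WT Mb replicate 5. The median over the members was 0.05 with that library and 0.38 without it, when Etv4 was at 0.72 ± 0.24, Spred1 at 0.48 ± 0.14, Il17rd at 0.44 ± 0.21 and Spry1 at 0.36 ± 0.17, none of which passed. Spred2 did, at 0.41 ± 0.10 (adjusted p = 0.0302 by limma), while 6.92% of all genes did. With all libraries, the lowest Mb library was above the highest Fb library, or the reverse, for none of the members, against 3.36% and 2.23% of all genes. Without WT Mb replicate 5 the lowest Mb value of Spred2, 18.4 FPKM, was above its highest Fb value, 17.2 FPKM. The share of all genes so placed without that library was not computed.

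In TKO_Ex, 3 of 10 members were higher in Mb, while 2.89% of all genes passed and 1.54% passed in that direction. At an unadjusted p below 0.05 there were 5 members, which also counted Spred1 and Etv4, while 12.6% of all genes were. Spry1 was at 22.2 to 30.4 FPKM in Mb as listed above and at 15.0, 14.2, 13.2 and 10.8 FPKM in Fb, a log2 difference of 0.84 ± 0.15 (adjusted p = 0.0161 by limma). Spry2 was at 10.2, 17.6, 11.8 and 8.96 FPKM in Fb, a difference of 1.20 ± 0.22 (adjusted p = 0.0224). Il17rd was at 24.2, 22.7, 24.1 and 16.8 FPKM in Mb and at 12.5, 12.7, 10.5 and 6.49 FPKM in Fb, a difference of 1.02 ± 0.21 (adjusted p = 0.0381). Every Mb library lay above every Fb library for these 3 genes and for Spred1 and Etv4, so for 5 of 10 members, against 4.67% of all genes, and the reverse held for none, against 4.27%. Dusp6 differed by -0.02 ± 0.17, with 21.1 to 33.8 FPKM in Mb and 21.6 to 33.8 FPKM in Fb. Markers of other cell types also differed between these tissues. The 6 primitive red cell markers had a median of 0.84 with 1 called in TKO_Ex, and of 0.29 with none called in WT. The 8 mesenchyme markers had a median of -0.70 with 4 called in TKO_Ex, and of -1.14 with 7 called in WT. Their part in the calls was not tested. The 3 calls were not firm. All 3 were lost without TKO_Ex Fb replicate 3, when the adjusted p was 0.0518 for Spry1, 0.0676 for Spry2 and higher still for Il17rd, and Spry1 alone passed without TKO_Ex Mb replicate 1, 2 or 3 or Fb replicate 1.

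No member passed in DKO_Ex, where 2.58% of all genes did, or in DKO_CD, where 0.507% did. In DKO_Ex 8 of 10 members were higher in Mb by their estimates, with a median of 0.43, and 4 had an unadjusted p below 0.05, which 14.4% of all genes had. Spred1 was at 21.8, 24.6 and 17.8 FPKM in Mb and at 12.2, 15.9 and 15.3 FPKM in Fb, a difference of 0.53 ± 0.17 (adjusted p = 0.199 by limma). Every Mb library was above every Fb library for Spred1, Spred2 and Etv4, against 12.6% of all genes, and the reverse held for none, against 7.86%. In DKO_CD 5 of 10 estimates were above 0, with a median of 0.00, and no member had an unadjusted p below 0.05, which 10.1% of all genes had. Etv1 was at 2.27, 2.58 and 2.45 FPKM in Mb, below all of its Fb values of 3.60, 3.04 and 5.03 FPKM, with a difference of -0.49 ± 0.23. That order held for 8.21% of all genes, and the opposite order for 7.34% and no member.

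Passing in TKO_Ex and not in WT does not show that the groups differ, and the difference between the tissue effects was tested directly. No member passed in the interaction of TKO_Ex, DKO_Ex or DKO_CD with tissue, in which 0.0149%, 0% and 0.00746% of all genes did. For TKO_Ex the interaction was 1.20 ± 0.58 for Spry2 (adjusted p = 0.762 by limma), 0.93 ± 0.51 for Il17rd and 0.88 ± 0.51 for Spry1, and 0.86 ± 0.45, 0.57 ± 0.32 and 0.48 ± 0.24 without WT Mb replicate 5. No member had an unadjusted p below 0.05 for TKO_Ex or DKO_Ex, which 6.5% and 3.88% of all genes had, and Spred2 alone had one for DKO_CD, with -0.36 ± 0.17, against 4.83%. Without WT Mb replicate 5 no member passed for TKO_Ex, DKO_Ex or DKO_CD, while 0.00745%, 0% and 0.00747% of all genes did.

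**Figure D4:**
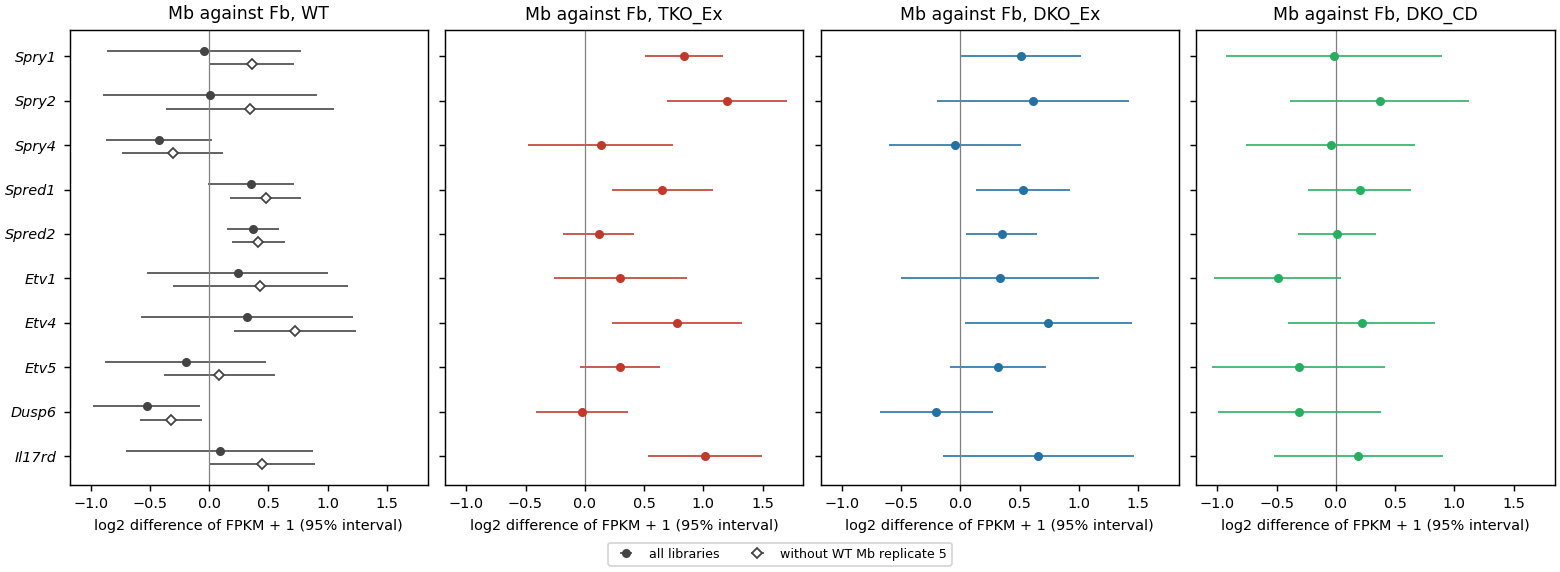
Log2 difference of FPKM + 1 between Mb and Fb for each member in WT, TKO_Ex, DKO_Ex and DKO_CD, with 95% intervals. Points right of 0 are higher in Mb. The open diamonds in the WT panel leave out WT Mb replicate 5, and Spry1, Spry2 and Il17rd of TKO_Ex lie farthest to the right.

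The other pathway genes that passed between the tissues were mostly higher in Mb. In WT these included 3 of 12 tested feedback and target genes, Cnpy1, an Fgf regulator of the isthmus (4.61), Flrt2 (0.62) and the cell cycle gene Ccnd1 (0.45), with Dusp5 (-0.90) and Myc (-0.61) higher in Fb. Of 6 tested ligands Fgf15 was higher in Mb (0.81) and Fgf10 in Fb (-0.81). Of 3 tested receptors Fgfr3 (1.57) and Fgfr2 (0.85) were higher in Mb. Without WT Mb replicate 5 the calls were 4 feedback and target genes higher in Mb, Dusp4 (0.64) being added, and only Dusp5 higher in Fb, 2 ligands higher in Mb, Fgf15 and Fgf18 (1.58), and 1 receptor, Fgfr3. Fgfr2 (0.69), Fgf10 (-0.83) and Myc (-0.53) then missed the threshold. Fgf8 differed by -0.57 ± 0.65 and Fgf17 by -0.68 ± 0.59 in WT with all libraries, and neither passed. Both were listed at 0 in WT Mb replicate 5. Without it the WT Mb means were 15.2 FPKM for Fgf8 and 10.5 FPKM for Fgf17, against 14.2 and 10.1 FPKM in WT Fb. The median log2 difference over the 6 tested ligands was -0.52 with that library and -0.03 without it. In TKO_Ex Cnpy1 (5.65), Fgf18 (2.01), Fgf15 (1.36), Fgf17 (1.31) and Ccnd1 (0.63) were higher in Mb and Fgf10 in Fb (-1.49), and in DKO_Ex Cnpy1 (5.502), Fgf15 (1.25) and Fgfr2 (0.93) were higher in Mb. In DKO_CD only Cnpy1 (5.21) passed. All values in parentheses are log2 differences of FPKM + 1 with an adjusted p below 0.05 by limma, unless said to have missed it.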

How the data were processed

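Per the labels and the study's methods, the authors made directional libraries from the total RNA of each tissue, sequenced 101 cycles, used TopHat2 for alignment on GRCm38, and deposited Cufflinks values as FPKM for each gene. They counted with HTSeq and tested with DESeq2, and counts were not used here. The FPKM of 65 repeated identifiers were summed, and gene names are from GENCODE M21. The members and gene lists were chosen with earlier results of these data known. Tests were made in limma (version 3.58.1, under R 4.3.3) after adding a pseudocount of 1 FPKM and taking log2. The variance prior followed the mean, genes averaging under 1 FPKM in a fit were left out, and p-values were adjusted over the remaining genes by Benjamini-Hochberg at 0.05. A difference on this scale understates the change of low genes. All members, Fgf8, Fgf17, Fgf18, Fgf15, 3 receptors and Spred3 were named by rule, as were listed genes that passed and the 5 genes most alike. A result for the cascade list between the tissues is not reported here. Fragments per library were inferred from 771 long genes with a single transcript, for which 76.4% to 84.0% of low values lay within 0.1 of a whole fragment. The fits were run on simulated data with a dispersion of 0.02 and log2 changes of 1.5, and 77.9% to 98.4% of the changed genes were recovered. Those changes were larger than any member's estimate, and the dispersion was not set from the members. Their coefficient of variation in WT Mb ran from 8.7% to 76.6%, so the power for the members was not measured. Libraries with the same number were labelled as replicates and nothing in the labels says whether Mb and Fb of a number came from the same embryo. Their deviations from the group mean correlated by 0.008 to 0.14 between Mb and Fb. Mutant and WT libraries of one number, which come from different embryos, correlated by -0.086 to 0.049. Whether the numbers are pairs was not settled. The main tests left pairing out, and the number entered as a block in an alternative. Labels do not state whether embryos were pooled, so p-values measure the spread between these samples. Alternatives changed the pseudocount, the filter, the scaling, the trend, the DKO grouping, the libraries, the block and the regressor.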

Additional observations from a re-analysis of the deposited data

Results flagged for a closer look

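In 72 groups of 4 or 6 libraries, formed by the members and 8 related genes, 9 held a library far from the rest by Dixon's ratio, where chance gives about 1 in 20. In WT Mb, Dusp6 was lowest in replicate 5, at 10.1 FPKM with the next at 23.1. In WT Fb, replicate 3 was highest for Spry1 at 18.5 FPKM (next 13.3), for Il17rd at 16.3 FPKM (next 11.6) and for Fgf17 at 17.2 FPKM (next 10.5). In TKO_Ex Mb, Spry1 was highest in replicate 3, at 30.4 FPKM with the next at 23.1, and Fgf17 was lowest in it, at 17.0 FPKM with the next at 19.0. Fgfr1 was highest in replicate 4, at 41.1 FPKM with the next at 33.2. In TKO_Ex Fb, replicate 4 was highest for Fgf8 at 38.9 FPKM (next 21.7) and for Fgfr3 at 17.8 FPKM (next 7.35). The other members had no such library, and groups of 3 were not examined.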

How the results depend on the processing

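None of the 10 members was called in the 6 comparisons of a mutant group with WT, in the 3 interactions, between the tissues of DKO_Ex or DKO_CD, or on Fgf8 in Fb under any alternative run, the DKO groups by record among them. Among members and settings, 2805 of 2866 stayed on their side of the threshold, and no called value changed sign. Between Mb and Fb in WT the count of 1 was 0 with no filter on low values, 0 with the replicate block and 0 to 1 with each library left out, the adjusted p of Spred2 ranging from 0.0292 to 0.0872. In TKO_Ex the count of 3 was 0 to 3 with each library left out and 0 without the libraries that stood apart (replicate 3 of both tissues), where the adjusted p was 0.101 for Spry1, 0.164 for Spry2 and 0.223 for Il17rd. For the slope on Fgf8 in Mb the count of 4 was 0 to 5 with each library left out, 0 without the libraries that stood apart (WT Mb replicate 5 and TKO_Ex replicate 3), 0 without the 2 libraries farthest in Fgf8 (WT replicate 5 and DKO_CD replicate 1), 1 with the WT libraries alone and 4 with Fgf17 as the regressor. The replicate block changed no other call of these counts. Over all genes, the calls of TKO_Ex against WT in Mb ranged from 0 to 52 around 12. The cause of these changes was not tested. Among the members, depth limits Spry4, Etv1 and Etv4 most, and it also limits Fgf8, the regressor of the slopes.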
